A study of Zea mays with 24 samples.

Results

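Asparagine synthases and asparaginases of the maize source leaf were followed in leaves exposed to cold nights, nitrogen shortage or phosphate shortage. The 8 transcripts were those listed in the study's supplementary pathway table under the heading of aspartate, asparagine and alanine metabolism, with a description that names an asparagine synthase (6 transcripts) or an asparaginase (2 transcripts). They made up 8 of the 16 entries of that heading, 8 of the 854 different probes of the pathway table and 8 of the 41780 transcript probes of the array. Each was represented by 1 probe, and all 8 were well above background on all 24 arrays, with 0 saturated and 0 outlier spots among them.

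All plants were of the maize inbred line B73, grown in pots with nutrient-poor peat soil. In the low temperature experiment the fifth leaf was harvested at day 20 after germination from plants kept at 28°C by day and either at 20°C (control T) or at 4°C (low T) by night, all supplied with 15 mM KNO3 and 0.5 mM KH2PO4. In the nutrient experiments the sixth leaf was harvested at day 30 from plants at 28°C by day and 20°C by night. Control N and control P plants received 15 mM KNO3 and 0.5 mM KH2PO4, low N plants 0.15 mM KNO3, and low P plants 0.1 mM KH2PO4. Each of the 6 groups held 4 biological replicates on 1 array each. RNA came from the middle part of the lamina, so that fewer cells of a type and less transcript per cell cannot be told apart. The low T plants stood in a climate chamber of their own, and chamber and night temperature therefore cannot be told apart. Low T and low N plants, with their controls, were raised in successive sets, and the set of each array is not given in the sources used here.

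Asparagine synthase transfers the amide nitrogen of glutamine to aspartate at the expense of ATP and releases asparagine and glutamate. Asparaginase hydrolyses asparagine to aspartate and ammonium. Asparagine carries much nitrogen on little carbon, and plants use it for storing and transporting nitrogen. In Arabidopsis some asparagine synthase genes are known to respond to darkness and sugar supply, and the genes of the family differ in their regulation.

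Levels are given as relative signal, which is the background-subtracted intensity of the probe divided by the 75th percentile of the transcript probes on the same array. Probes differ in brightness for reasons other than transcript abundance, so that levels were compared between groups for 1 probe and never between probes. Changes are log2 differences (stress minus its own control) with the standard error of limma's fit over the 8 arrays of an experiment. Calls required more than a 2-fold difference together with an adjusted p under 0.05, by Benjamini and Hochberg's method over all 31507 tested probes. An exact two-sided permutation p over the same 8 arrays is added, and 0.0286 is the smallest value it can take. Both p treat the arrays as unpaired. With 4 pairs of equal replicate number, an exact sign-flip test could not go below 0.125.

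On all arrays 25780 to 36966 probes were well above background. The 26 photosystem probes, the mesophyll enzymes C4 phosphoenolpyruvate carboxylase and pyruvate orthophosphate dikinase, and the bundle sheath enzymes NADP-malic enzyme and the Rubisco small subunit were well above background on all 24 arrays. Replicates 1 and 2 of control T and low T lay on 1 slide and replicates 3 and 4 on another. The low N experiment was spread over 4 slides, and both of its groups met on 1 slide only. Low N replicates 1 and 2 lay on slide 6, and low N replicates 3 and 4 on slide 4 with control N replicate 3. In the phosphate experiment each group filled a slide of its own, and for every low P value the slide cannot be told apart from the treatment.

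Of the 8 transcripts, low temperature lowered 2 and raised 0, against 7.11% of all tested probes called lower and 7.25% called higher. Low N lowered 2 and raised 0, where 3.14% of all tested probes were called lower and 2.68% higher. Low P lowered 3 and raised 1, where 3.01% were called lower and 8.22% higher. Across the 3 stresses, 2 transcripts were called under every stress, 2 under low P alone and 4 under no stress. The 4 stressed arrays stood apart from the 4 control arrays, without overlap, for 3 of the 8 transcripts in the cold (35.3% of all tested probes), 4 at low N (21.4%) and 6 at low P (42.5%). The median log2 change of the 8 was -0.11 in the cold, -0.20 at low N and -0.44 at low P, beside -0.07, -0.04 and 0.03 over all tested probes.

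**Figure D1:**
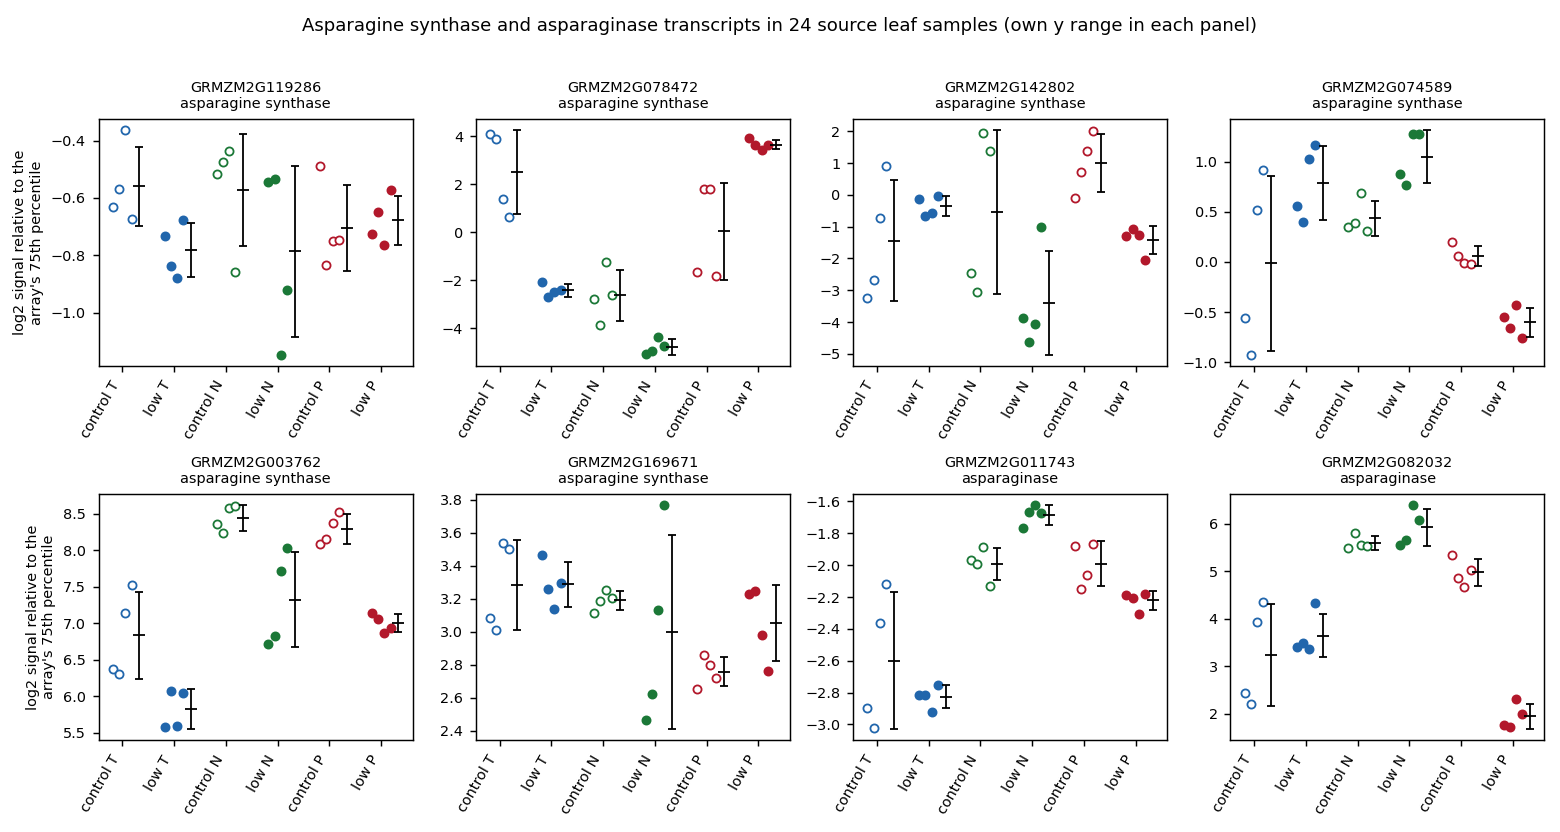
Log2 relative signal (y axis, own range in each panel) of the 6 asparagine synthase and 2 asparaginase transcripts in the 6 groups (x axis). Each point is 1 array, open for controls and filled for stressed leaves, and the bar beside the points is the mean with 1 SD (n = 4). GRMZM2G078472 lies lowest in low N and highest in low P, and GRMZM2G082032 is lowest in low P.

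The asparagine synthase GRMZM2G078472 (probe OptiV1C00703) had the widest range of the 8, with relative signals from 0.0298 to 17.4 over the 24 arrays. In control T leaves its relative signal was 17.4, 14.7, 2.60 and 1.57 in replicates 1 to 4, and in low T leaves it was 0.241, 0.153, 0.178 and 0.192. The highest low T array thus remained below the lowest control T array. Low temperature lowered the transcript 30.2-fold (log2 change -4.92 ± 0.76, SE; limma adjusted p = 0.0026; exact permutation p = 0.0286). The control T arrays split by slide while the low T arrays did not. Within slide 1 the log2 change was -6.38 and within slide 2 it was -3.45 (2 against 2 arrays each).

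Under nitrogen shortage the same transcript fell as well, from a lower control level. Its relative signal was 0.145, 0.0697, 0.422 and 0.165 in the 4 control N leaves and 0.0298, 0.0324, 0.0492 and 0.0381 in the low N leaves. The low N spots were dim, with background-subtracted intensities of 32.8 to 40.9, though flagged well above background. The groups did not overlap, and the change was 4.44-fold (log2 change -2.15 ± 0.48, SE; limma adjusted p = 0.027; exact permutation p = 0.0286). Within the slide that held arrays of both groups it was -3.29 on the log2 scale (2 low N arrays against 1 control N array). This call was lost when low N replicate 1, 2 or 4 or control N replicate 1 or 4 was left out alone, and over the omission of each of the 8 arrays the log2 change ranged from -2.56 to -1.69 and the adjusted p from 0.013 to 0.077. It was also lost without a filter on dim probes (adjusted p = 0.053), in 1 fit over all 24 arrays (adjusted p = 0.061) and under spike-in scaling (log2 change -1.62, adjusted p = 0.050). Over all alternatives that kept every array, the log2 change ranged from -2.84 to -1.34.

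Low P had the opposite sign for GRMZM2G078472. The control P leaves fell into a pair of high arrays, with relative signals of 3.49 and 3.51 in replicates 2 and 3, and a pair of low arrays, with 0.321 and 0.287 in replicates 1 and 4, although all 4 shared a slide. The low P leaves had 15.3, 12.5, 10.8 and 12.4, each above the highest control. The transcript rose 12.3-fold (log2 change 3.62 ± 0.88, SE; limma adjusted p = 0.013; exact permutation p = 0.0286). The call held with each array left out alone (adjusted p = 0.0090 to 0.033), but not when replicate 1 or replicate 4 was left out of both groups (adjusted p = 0.055 and 0.064) nor in a test against a 1.5-fold change (adjusted p = 0.064). In all 3 experiments the controls of this transcript varied more than the stressed leaves, with SDs of 1.75, 1.07 and 2.04 on the log2 scale for control T, control N and control P (n = 4 each). The corresponding SDs were 0.27, 0.32 and 0.20 for low T, low N and low P. Its residual SD was at percentile 97.8 of all tested probes in the low temperature experiment, 91.2 in the low N and 99.6 in the low P experiment.

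The order of the group means for GRMZM2G078472 ran from low P (relative signal 12.7) through control T (5.69), control P (1.03), low T (0.188) and control N (0.163) to low N (0.0367). Neighbours in this order overlapped except for control P above low T and control N above low N. Highest and lowest group means were 345-fold apart, the lowest being that of the dim low N spots. However, control T and the nutrient controls also differed in leaf number, age and growth chamber.

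GRMZM2G003762 (probe OptiV1C01172), an asparagine synthase, was the other transcript called under all 3 stresses, each time lower. Its relative signal was 82.9, 78.8, 140.9 and 184.1 in control T leaves and 47.5, 67.1, 48.3 and 65.8 in low T leaves. The groups did not overlap, and the level was 2.02-fold lower under low temperature (log2 change -1.02 ± 0.30, SE; limma adjusted p = 0.033; exact permutation p = 0.0286). Within slide 1 the log2 change was -0.52 and within slide 2 it was -1.51. The call was lost when low T replicate 1, 3 or 4 or control T replicate 3 or 4 was left out alone, with log2 changes of -1.19 to -0.79 and adjusted p of 0.026 to 0.088 over the omission of each array. It was also lost under normexp background correction, quantile normalization, either spike-in scaling and without the filter on dim probes, with log2 changes of -1.02 to -0.57.

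In the nutrient experiments GRMZM2G003762 was lower in the stressed leaves as well. Control N leaves had relative signals of 327.9, 300.9, 383.4 and 389.0, and low N leaves 105.3, 113.1, 209.7 and 261.2. Low N replicates 1 and 2 were thus lower than replicates 3 and 4, which lay on another slide, and all 4 were below the controls. The change was 2.18-fold (log2 change -1.12 ± 0.30, SE; limma adjusted p = 0.0498; exact permutation p = 0.0286), and within the shared slide it was -0.71. This call was lost in 7 of the 8 omissions of a single array, all but that of low N replicate 4, with log2 changes of -1.36 to -0.92 and adjusted p of 0.024 to 0.12. Quantile normalization, either spike-in scaling and the slide as a random block brought the change under 2-fold (log2 changes of -0.91 to -0.55), and without the filter on dim probes the adjusted p was 0.090. Under low P the relative signals were 140.9, 133.1, 117.1 and 122.2, against 271.1, 285.3, 332.0 and 370.0 in control P. The fall of 2.44-fold had the smallest SE of the 3 (log2 change -1.29 ± 0.12, SE; limma adjusted p = 0.00015; exact permutation p = 0.0286) and held in each omission of a single array. Each of these groups lay on a single slide, so that this SE holds no spread between slides within a group. Spike-in scaling on probes well above background brought it under 2-fold (log2 change -0.77, adjusted p = 0.010).

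Group means of GRMZM2G003762 were highest in control N (relative signal 348.3) and control P (312.2), which overlapped each other but not the next group. Low N (159.8), low P (128.0) and control T (114.1) followed, each overlapping its neighbour, and low T was lowest at 56.4 without overlap. The largest and smallest means were 6.17-fold apart.

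GRMZM2G142802 (probe OptiV1C01733), a further asparagine synthase, was called under low P alone. Its relative signal was 0.930, 1.63, 2.62 and 3.99 in control P leaves and 0.404, 0.478, 0.418 and 0.242 in low P leaves. No low P array reached the lowest control P array. The level fell 5.34-fold (log2 change -2.42 ± 0.44, SE; limma adjusted p = 0.0033; exact permutation p = 0.0286). The call was lost in 1 fit over all 24 arrays, where the adjusted p was 0.082.

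The same transcript varied widely among replicates in the other experiments. In control N it was at 0.183 and 0.121 in replicates 1 and 2 but at 3.86 and 2.62 in replicates 3 and 4, a 32.0-fold range within 1 group. Low N leaves had 0.0685, 0.0401, 0.0597 and 0.500, and the groups overlapped. The spots of low N replicates 1, 2 and 3 were dim, with background-subtracted intensities of 75.4, 43.8 and 49.7, though flagged well above background. Each low N array was lower than the control N array of the same replicate number, with log2 differences of -6.01 to -1.42 in 4 of 4 pairs. The log2 change of -2.85 ± 1.29 (SE) was not called (limma adjusted p = 0.19; exact permutation p = 0.143), and its residual SD was at percentile 99.9 of all tested probes. With the slide as a random block the log2 change was -3.97 and the adjusted p 0.036, and within the shared slide the log2 change was -4.48.

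In the cold experiment GRMZM2G142802 was at 0.105, 0.155, 0.604 and 1.86 in control T and at 0.908, 0.632, 0.667 and 0.967 in low T. The low T arrays lay close together within the span of the controls. The log2 change was 1.08 ± 0.83 (SE; limma adjusted p = 0.34; exact permutation p = 0.314) and differed in sign between the slides, with 2.57 within slide 1 and -0.40 within slide 2. Without control T replicate 4 it was 1.86 and called higher (adjusted p = 0.039). The group means followed the order control P (1.996), low T (0.780), control N (0.688), low P (0.374), control T (0.368) and low N (0.0952), and each group overlapped the next.

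**Figure D2:**
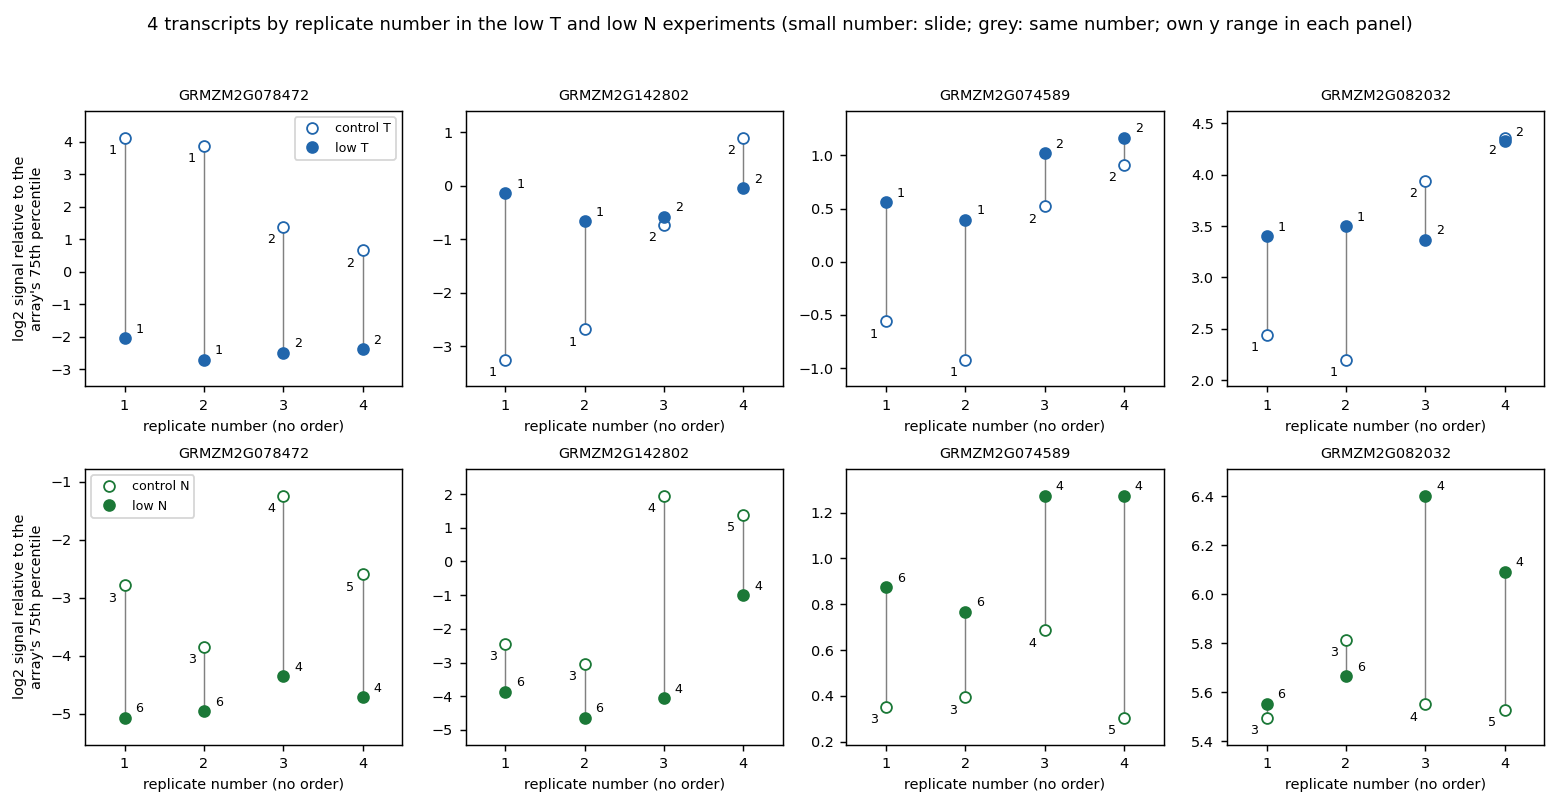
Log2 relative signal (y axis, own range in each panel) against replicate number (x axis) for 3 asparagine synthases and the asparaginase GRMZM2G082032 in the low temperature (upper row) and low N (lower row) experiments. Open points are controls and filled points stressed leaves, grey lines join arrays of the same number, and the small figure beside a point is its slide. In control T, replicates 1 and 2 differ from replicates 3 and 4 for all 4 transcripts, and GRMZM2G142802 in control N splits in the same way.

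The asparagine synthase GRMZM2G074589 (probe OptiV1C10467) was called under no stress but moved within the limit of 2-fold. Under low N its relative signal was 1.83, 1.70, 2.42 and 2.42, against 1.28, 1.31, 1.61 and 1.23 in control N. Every low N array was above every control N array, with a 1.53-fold higher level (log2 change 0.61 ± 0.17, SE; limma adjusted p = 0.053; exact permutation p = 0.0286). With the replicate block the adjusted p was 0.049 at the same change, and under spike-in scaling on probes well above background the transcript was called higher (log2 change 1.19, adjusted p = 0.022). Low P leaves had 0.683, 0.633, 0.744 and 0.590 and control P leaves 1.15, 1.04, 0.995 and 0.983. These groups did not overlap either, and the level was 1.58-fold lower (log2 change -0.66 ± 0.10, SE; limma adjusted p = 0.0015; exact permutation p = 0.0286), which passed the limit on p but not that on fold change.

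In the low temperature experiment GRMZM2G074589 was at 0.678, 0.528, 1.44 and 1.88 in control T and at 1.48, 1.32, 2.03 and 2.25 in low T. The groups overlapped, and in each of them replicates 3 and 4 were higher than replicates 1 and 2. Low T was above control T in 4 of 4 pairs of the same replicate number, by 0.26 to 1.32 on the log2 scale. The log2 change was 0.80 ± 0.41 (SE; limma adjusted p = 0.175; exact permutation p = 0.171), with 1.22 within slide 1 and 0.38 within slide 2. The adjusted p was 0.040 with the replicate block and 0.018 with the slide as a block, at the same change of under 2-fold. It was called higher only under spike-in scaling (log2 change 1.24, adjusted p = 0.020). Means fell from low N (2.07) through low T (1.72), control N (1.35), control P (1.04) and control T (0.992) to low P (0.660), and only control N and control P did not overlap as neighbours.

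GRMZM2G119286 (probe OptiV1C06180) and GRMZM2G169671 (probe OptiV1S34134), the remaining asparagine synthases, varied least. GRMZM2G119286 ranged from 0.452 to 0.777 over all 24 arrays, and its largest and smallest group means, in control T and low N, were only 1.17-fold apart. Its log2 changes were -0.22 ± 0.12 in the cold, -0.21 ± 0.18 at low N and 0.03 ± 0.10 at low P (SE; limma adjusted p = 0.19, 0.49 and 0.84). The low T arrays, at 0.544 to 0.626, were nevertheless all just below the control T arrays, at 0.627 to 0.777 (exact permutation p = 0.0286). All 6 groups overlapped their neighbours.

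GRMZM2G169671 ranged from 5.53 to 13.6 over the 24 arrays, and both extremes were low N leaves. Low N replicates 1 to 4 had relative signals of 5.53, 6.15, 8.77 and 13.6, while the control N leaves lay between 8.65 and 9.55. Low N replicates 1 and 2 lay on another slide than replicates 3 and 4. The log2 changes were 0.01 ± 0.16 in the cold, -0.19 ± 0.27 at low N and 0.30 ± 0.12 at low P (SE; limma adjusted p = 0.98, 0.69 and 0.090). Their 95% confidence intervals were -0.37 to 0.38, -0.81 to 0.43 and 0.01 to 0.58 and thus lay within a 2-fold change. Its group means lay between 6.77 in control P and 9.78 in low T, and each group overlapped the next. Intervals for GRMZM2G119286 lay within it too, the widest being -0.63 to 0.20 under low N.

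The asparaginase GRMZM2G082032 (probe OptiV1S26660) had the largest fall of the 8 transcripts under low P. Control P leaves had relative signals of 40.9, 28.9, 25.6 and 32.9, and low P leaves 3.40, 3.29, 4.93 and 3.96. A wide gap separated the groups, and the level was 8.21-fold lower (log2 change -3.04 ± 0.18, SE; limma adjusted p = 1.9e-05; exact permutation p = 0.0286). The call held under every alternative tried, with log2 changes between -3.26 and -2.52.

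Under low N the same asparaginase was at 46.9, 50.8, 84.6 and 68.2, against 45.1, 56.2, 46.9 and 46.1 in control N. Low N replicates 3 and 4 were above all controls while replicates 1 and 2, on another slide, lay within their range. The log2 change of 0.33 ± 0.21 was not called (SE; limma adjusted p = 0.34; exact permutation p = 0.171). Under low temperature it was at 5.42, 4.59, 15.3 and 20.6 in control T and at 10.6, 11.3, 10.3 and 20.1 in low T. The log2 change was 0.41 ± 0.51 (SE; limma adjusted p = 0.56; exact permutation p = 0.486), with opposite signs within slide 1 (1.13) and slide 2 (-0.30). The order of means was low N (60.9), control N (48.4), control P (31.6), low T (12.6), control T (9.41) and low P (3.84). Control N, control P and low T did not overlap as neighbours, and the other neighbours did.

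GRMZM2G011743 (probe OptiV1C17494), the second asparaginase, differed by less than 2-fold from its control under each stress. Low N leaves had relative signals of 0.293, 0.315, 0.325 and 0.313, all above the control N leaves with 0.256, 0.251, 0.270 and 0.229. The 1.24-fold difference (log2 change 0.31 ± 0.12, SE) did not pass the test (limma adjusted p = 0.12; exact permutation p = 0.0286). Low P leaves, at 0.202 to 0.221, were all below control P leaves, at 0.226 to 0.274 (log2 change -0.23 ± 0.09, SE; limma adjusted p = 0.075; exact permutation p = 0.0286). In low T leaves the level was 0.132 to 0.148 and in control T leaves 0.123 to 0.231 (log2 change -0.23 ± 0.21, SE; limma adjusted p = 0.44; exact permutation p = 0.400). The highest mean, in low N (0.311), was 2.21-fold above the lowest, in low T (0.141). Between them came control P (0.252), control N (0.251), low P (0.215) and control T (0.165), and neighbours overlapped except below low N and below control N.

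**Figure D3:**
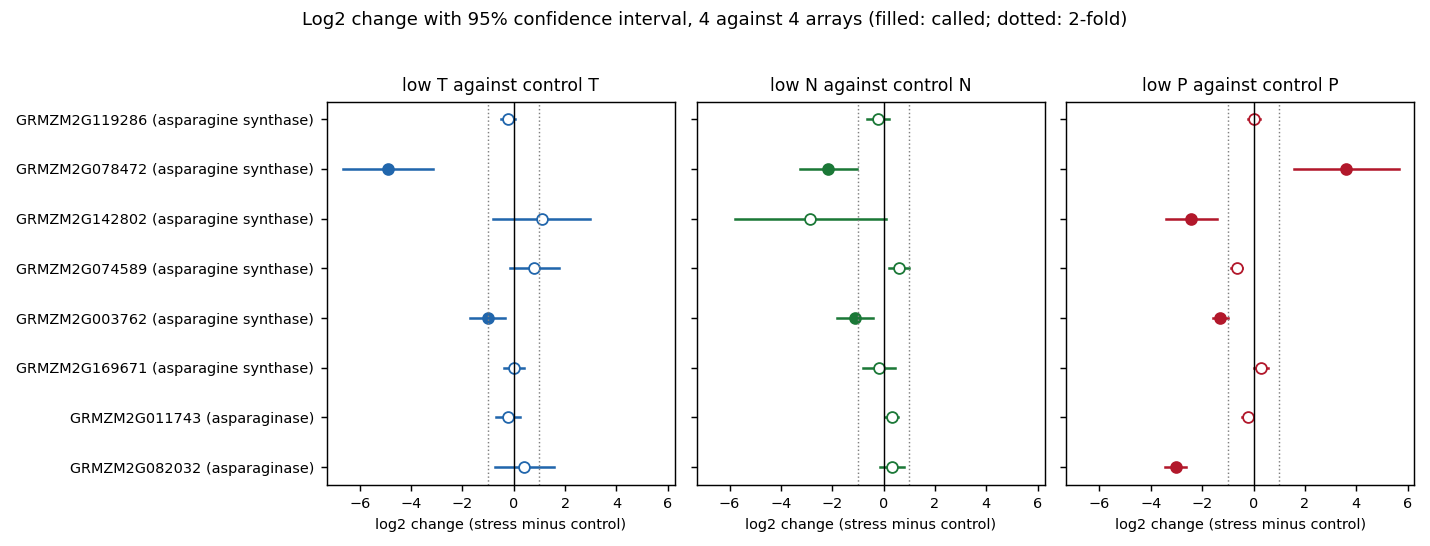
Log2 change against the own control (x axis) of the 8 transcripts (y axis) for each of the 3 stresses. Points are limma estimates from 4 against 4 arrays, lines are 95% confidence intervals, filled points were called and dotted lines mark a 2-fold change. The asparagine synthase GRMZM2G078472 lies at -4.92, -2.15 and 3.62, and the asparaginase GRMZM2G082032 at 0.41, 0.33 and -3.04.

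Whether a transcript responded differently to the stresses was tested as the difference of its log2 changes in 1 fit over all 24 arrays. The responses to low P and low temperature differed for 3 of the 8 transcripts at an adjusted p under 0.05, as for 38.9% of all tested probes. GRMZM2G078472 had the widest gap (8.53 ± 1.12, SE; limma adjusted p = 7.0e-06), with a rise under low P and a fall under low temperature. The fit takes 1 shared spread over the 6 groups, while the group SDs of this transcript ran from 0.20 in low P to 2.04 in control P. The asparaginase GRMZM2G082032 differed by -3.45 ± 0.51 (SE; limma adjusted p = 2.3e-05) and the asparagine synthase GRMZM2G074589 by -1.46 ± 0.40 (SE; limma adjusted p = 0.0065). The sign is that of low P minus low temperature, so that the first responded more positively to low P and the other 2 more negatively. Under spike-in scaling GRMZM2G142802 passed as well (-3.72, adjusted p = 0.040, beside -3.50 and 0.059). Without replicate 1 the difference of GRMZM2G074589 did not pass (-1.32, adjusted p = 0.065).

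Low P and low N responses differed for the same 3 transcripts (19.9% of all tested probes). The difference was 5.77 ± 1.12 for GRMZM2G078472 (SE; limma adjusted p = 0.0011), -3.37 ± 0.51 for GRMZM2G082032 (adjusted p = 1.0e-04) and -1.27 ± 0.40 for GRMZM2G074589 (adjusted p = 0.028). The last was lost when any replicate number was left out of all groups (adjusted p = 0.054 to 0.13). Between low N and low temperature 0 of the 8 transcripts differed by limma (22.4% of all tested probes), and 3 had an unadjusted p under 0.05. Of these, GRMZM2G142802 had a difference of -3.94 ± 1.43 (SE; adjusted p = 0.053). With the replicate number as a block its adjusted p was 0.023, and without replicate 4 it was 0.028.

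For GRMZM2G003762, called lower under all 3 stresses, the differences between the responses were -0.27 to -0.11, and none passed the test. Their 95% confidence intervals still allowed differences from -1.07 to 0.69 on the log2 scale.

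**Figure D4:**
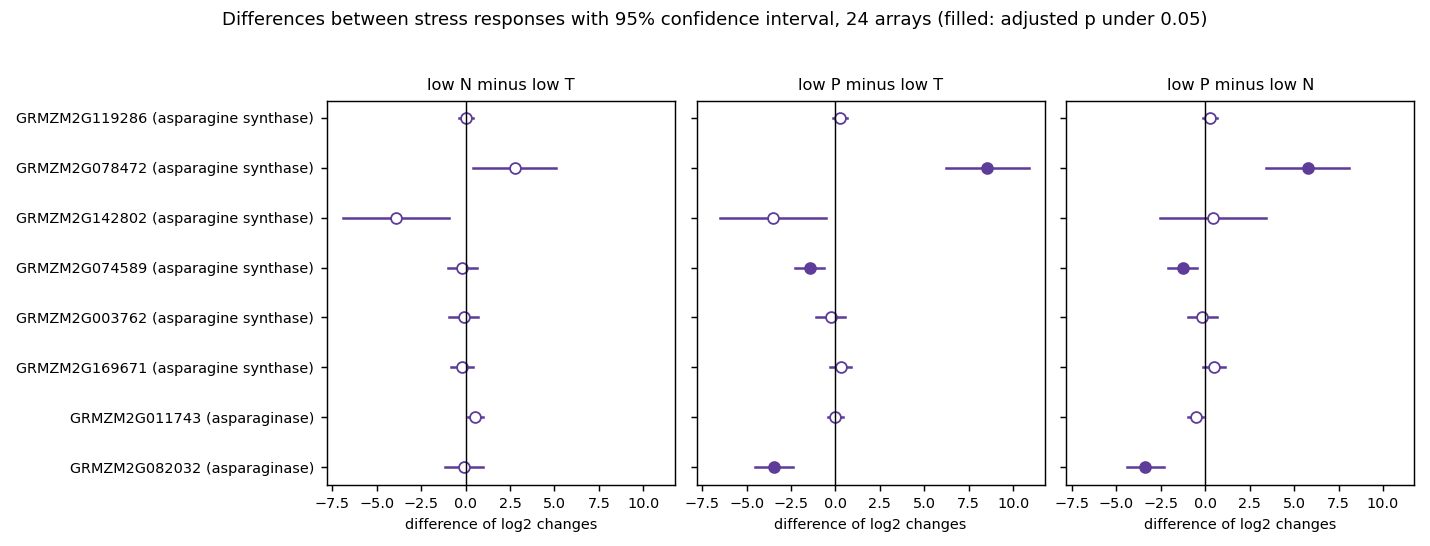
Differences between the log2 changes of 2 stresses (x axis) for the 8 transcripts (y axis), from limma over 24 arrays, with 95% confidence intervals. Filled points had an adjusted p under 0.05. GRMZM2G078472 (8.53 and 5.77), GRMZM2G074589 and GRMZM2G082032 stand apart in the comparisons with low P, and no point is filled for low N minus low temperature.

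Control N and control P leaves received the same solution and were harvested at the same age, in separate experiments. Of the 8 transcripts 0 were called between them by limma (1.26% of all tested probes), and 4 had an unadjusted p under 0.05. GRMZM2G169671 was 1.35-fold higher in control N (log2 change 0.43 ± 0.09, SE; limma adjusted p = 0.045), below the limit on fold change. GRMZM2G082032 was 1.53-fold higher there (log2 change 0.62 ± 0.16, SE; limma adjusted p = 0.071) and GRMZM2G074589 1.30-fold (0.38 ± 0.12, SE; limma adjusted p = 0.11). The control arrays of these 3 of the 8 transcripts did not overlap (exact permutation p = 0.0286 each). The share without overlap over all tested probes was not computed for this comparison. GRMZM2G078472 had a control N level 6.33-fold below that of control P, but the arrays overlapped and the adjusted p was 0.16 (log2 change -2.66 ± 0.98, SE).

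The other 8 entries of the same heading, the aspartate and alanine aminotransferases, link aspartate and alanine to glutamate. Of these, 1 was called higher under low temperature (7.25% of all tested probes) and 1 lower under low N (3.14%). Under low P 1 was called higher and 1 lower (8.22% and 3.01%). The aspartate aminotransferase GRMZM2G094712 was 3.64-fold higher under low temperature (limma adjusted p = 0.00077). The alanine aminotransferase GRMZM2G088064 was 2.97-fold lower under low N (adjusted p = 0.0043) and 2.05-fold lower under low P (adjusted p = 0.0046). The alanine aminotransferase GRMZM2G124963 was 3.66-fold higher under low P (adjusted p = 0.0019).

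Glutamine for asparagine synthesis comes from the glutamine synthetase and glutamate synthase cycle, which is represented by 7 probes. Low temperature raised 2 of them, the cytosolic glutamine synthetase GRMZM2G024104 (2.00-fold, limma adjusted p = 0.0023) and the NADH-dependent glutamate synthase GRMZM2G085078 (2.09-fold, adjusted p = 0.00066). Low N changed 0 of the 7 by these limits, and low P lowered 1, the cytosolic glutamine synthetase GRMZM2G050514 (2.05-fold, adjusted p = 0.0014). Over all tested probes 7.25% were called higher in the cold, 2.68% higher and 3.14% lower at low N, and 3.01% lower at low P. The median log2 changes of the 7 were 0.18 in the cold, -0.14 at low N and -0.21 at low P.

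For each transcript called at least once, the other probes of the pathway table were ranked by the mean absolute difference between their log2 signals and its own over the 12 stressed arrays, each relative to its control mean. Nearest to GRMZM2G078472 were GRMZM2G153754, described as a Tesmin/TSO1-like CXC domain protein (0.60), and GRMZM2G436295, described as a noncoding RNA of phosphate allocation (0.68), against a median of 3.60 over 842 candidates. The latter had log2 changes of -4.62 in the cold, -3.06 at low N and 3.33 at low P. Nearest to GRMZM2G003762 were the Rubisco activase probes of GRMZM2G162282 (0.27) and GRMZM2G162200 (0.30), with a median of 1.24. GRMZM2G142802 was nearest to the cytosolic 6-phosphogluconate dehydrogenase GRMZM2G440208 (0.93) and the nitrate transporter GRMZM2G112154 (1.1), with a median of 2.07. The asparaginase GRMZM2G082032 was nearest to the fructose-bisphosphate aldolase GRMZM2G345493 (0.43) and the serine carboxypeptidase GRMZM2G035517 (0.69). These likenesses describe shared arrays and were not tested.

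Markers of other states and cell types were read on the same arrays. All 26 photosystem probes had a negative log2 change in the cold (median -0.62), 22 of 26 at low N (median -0.18), and 24 of 26 had a positive one at low P (median 0.16). Of these, 3 were called lower in the cold (7.11% of all tested probes) and 2 higher at low P (8.22%). At low N 0 of the 26 were called (3.14% lower and 2.68% higher over all tested probes). The log2 of their mean relative signal was 7.58 to 8.04 in low T against 8.22 to 8.74 in control T, 7.64 to 7.96 in low N against 7.68 to 8.23 in control N, and 7.63 to 8.04 in low P against 7.38 to 7.83 in control P. Pyruvate orthophosphate dikinase (GRMZM2G097457) was 2.33-fold lower under low N (limma adjusted p = 0.014) and 2.89-fold lower under low P (adjusted p = 0.035). Its groups did not overlap under low N but did under low P (exact permutation p = 0.0286 and 0.057). The other mesophyll probe, phosphoenolpyruvate carboxylase (GRMZM2G083841), was not called under any stress, with log2 changes of -0.24, -0.70 and -0.23 (adjusted p = 0.35, 0.023 and 0.27). Of the 2 bundle sheath probes 0 were called. NADP-malic enzyme (GRMZM2G085019) was lower without overlap in all 3 comparisons, where 35.3%, 21.4% and 42.5% of all tested probes did not overlap. It fell 1.38-fold in the cold and 1.71-fold at both low N and low P (adjusted p = 0.031, 0.0085 and 0.0064). The Rubisco small subunit (GRMZM2G113033) overlapped in all 3, with log2 changes of -0.02, -0.35 and -0.21 (adjusted p = 0.96, 0.64 and 0.65). Of the 4 senescence probes, 1 was called higher and 1 lower under low temperature (7.25% and 7.11% of all tested probes). Under low N 1 was called higher (2.68%), and under low P 2 were called higher (8.22%). Of the 4, 2 were well above background on all 24 arrays. The Myb transcription factor GRMZM2G051256 was 3.33-fold lower in the cold (limma adjusted p = 0.0041) and 2.20-fold higher at low P (adjusted p = 7.7e-05). The SAG12-like cysteine protease GRMZM2G010435 was 9.25-fold higher in the cold (limma adjusted p = 0.0019). It was also called higher at low N and low P (adjusted p = 0.025 and 0.0020), but no fold is given there, since it was well above background on only 3 low N, 2 control N and 1 control P arrays, beside all 4 low P arrays. The log2 of the mean relative signal of the 4 probes was 0.23 to 0.40 in low P against -0.55 to -0.40 in control P leaves, -0.72 to -0.18 in low N against -0.91 to -0.49 in control N, and -0.71 to -0.51 in low T against -0.46 to 0.63 in control T. Brighter probes weigh more in this mean, and the mean log2 signals in low P were 1.81 for GRMZM2G051256 and -4.28 for GRMZM2G010435. The part of these markers in the changes of the asparagine transcripts was not tested.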

How the data were processed

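Leaf RNA of 24 maize samples was hybridised with 1 dye to custom Agilent arrays. The authors deposited scanner files with background-subtracted intensity values, and a table of log2 values that the authors had scaled to the 75th percentile and baseline corrected in GeneSpring, used here as an alternative.

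Log2 intensities minus the 75th percentile were used without outlier spots. A probe entered the test when some group had it well above background in each of its 4 arrays (31507 of 41780). The test was limma 3.58.1 (lmFit, eBayes) in R 4.3.3, with the study's limits on fold change and adjusted p, and was tested on simulated data. The 4 arrays per group limit the precision. Named besides the 8 are called transcripts of the pathway lists and of the senescence markers, and the 2 nearest to each called transcript. The mesophyll and bundle sheath markers are all named, and the photosystem probes are only counted. The 8 transcripts and the lists were chosen with earlier results of these data known.

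The main fits were unpaired. Over 31185 probes, arrays with equal replicate numbers deviated together from their group means for T (r of 0.19 to 0.42) and N (0.18 to 0.36). They did not do so for P (-0.10 to 0.05). Pairs for T and N rest on these correlations alone and entered only the alternatives with the replicate block. Arrays of different number reached similar values (-0.41 to 0.42 for T and -0.40 to 0.35 for N), so that the correlations do not establish pairs. Alternatives were normexp (offset 50, on median spot signals), quantile normalization, scaling on 10 spike-in probes or the 7 well above background on all arrays, other filters, floors and fits, blocks for replicate number and slide, and omission of replicates. The omission of single arrays was chosen after seeing the data.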

Additional observations from a re-analysis of the deposited data

Results flagged for a closer look

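Over the 48 sets of 4 arrays (8 transcripts in 6 groups), 1 array stood far from the other 3 by Dixon's criterion, which chance meets in about 1 of 20 sets. It was low T replicate 4 for the asparaginase GRMZM2G082032, with a log2 relative signal of 4.33 against 3.37 to 3.50 in the other low T leaves. Without it the log2 change under low temperature was 0.19 and not called, as with it.

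Responses to low P and to another stress differed by limma's test in 6 cases of 3 transcripts. The asparagine synthase GRMZM2G078472 differed by 8.53 from its response to low temperature and by 5.77 from its response to low N. GRMZM2G074589, also an asparagine synthase, differed by -1.46 and -1.27, and the asparaginase GRMZM2G082032 by -3.45 and -3.37, in the same order. Since slide and treatment coincide in the low P experiment, they cannot be told apart in these differences.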

How the results depend on the processing

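Of 8 transcripts, 2 were called under low temperature, but 1 under normexp background correction, quantile normalization, spike-in scaling on probes well above background, no filter on dim probes and a test against a 1.5-fold change, and 1 to 2 with arrays left out. In each of these settings GRMZM2G078472 was still called lower. For low N 2 were called, but 1 after quantile normalization and in 1 fit over all 24 arrays, 0 under spike-in scaling, without the filter and in the test against a 1.5-fold change, and 0 to 1 with arrays left out. Low P had 3 to 5 calls throughout, and the test against a 1.5-fold change lost GRMZM2G078472 there. With the replicate block the counts in the 3 comparisons were 2, 2 and 4 as without it, and it changed no call of a transcript there. Between low N and low temperature 0 transcripts differed, but 1 with the replicate block and 0 to 1 with replicates left out. With the replicate block GRMZM2G142802 also differed between low P and low temperature (-3.50, adjusted p = 0.025), where low P numbers share no pairing, and it did so under spike-in scaling too (-3.72, adjusted p = 0.040). The slide as a fixed block changed no call under low temperature.

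Signs turned only for values that were not called. Over all tested probes, spike-in scaling shifted the median change by 0.44 in the cold, 0.53 at low N and 0.22 at low P (log2), and its restricted form by 0.22, 0.58 and 0.51. Normexp moved it by -0.25 and quantile normalization by -0.13 under low P. Under spike-in scaling GRMZM2G119286 turned to 0.22 under low temperature and 0.31 under low N, GRMZM2G011743 to 0.22 under low temperature and GRMZM2G169671 to 0.34 under low N. Restricted spike-in scaling gave 0.36 and 0.38 for GRMZM2G119286 and GRMZM2G169671 under low N and 0.28 for GRMZM2G011743 under low P. Normexp gave -0.11 for GRMZM2G169671 under low temperature and -0.0195 for GRMZM2G119286 under low P, where quantile normalization gave -0.0062. The slide as a random block gave 0.0201 for GRMZM2G169671 under low N. With arrays left out, GRMZM2G169671 ranged from -0.12 to 0.14 under low temperature and GRMZM2G119286 from -0.025 to 0.11 under low P.

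For the difference of low N from low temperature, GRMZM2G082032 turned to 0.0352 under normexp, 0.0912 after quantile normalization, 0.0037 under spike-in scaling and 0.28 under its restricted form. GRMZM2G003762 turned to 0.17 after quantile normalization and 0.25 under restricted spike-in scaling, and GRMZM2G074589 to 0.17 under the latter. With replicates left out these 3 ranged from -0.58 to 0.37, -0.45 to 0.25 and -0.48 to 0.0677. GRMZM2G003762 turned to 0.03 for low P against low temperature under restricted spike-in scaling. For low P against low N it ranged from -0.45 to 0.12 and GRMZM2G142802 from -0.54 to 1.13 with replicates left out. The causes were not tested.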
